A study of Mus musculus with 54 samples.

Results

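The interferon regulatory factors are a family of transcription factors that share a DNA-binding domain, and 8 of its genes, Irf1, Irf2, Irf3, Irf4, Irf5, Irf7, Irf8 and Irf9, are described here across every condition of the series. They were taken by gene name from the 55385 genes of the count tables, and each of the 8 was found once and passed the minimum of 1 read. IRF3 and IRF7 are switched on by sensors of viral nucleic acid and drive interferon genes, IRF9 is the DNA-binding part of the ISGF3 complex, which carries the type I interferon signal to its target genes, and IRF1 is itself induced by interferons while IRF2 competes with it for shared sites. IRF4 is induced by the T cell receptor and binds with BATF at composite sites in activated T cells, IRF8 is best known from myeloid and B cells, and IRF5 acts in innate and B cells.

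Messenger RNA was sequenced from naive CD4+ T cells of C57BL/6 mice, in 54 libraries from pooled lymph nodes and spleens. In the first experiment (36 libraries), WT, Cd5-/-, Cd6-/- and Cd5-/-Cd6-/- cells, lacking one or both of the surface proteins CD5 and CD6, were enriched with a magnetic kit. In the second (18 libraries), WT (hDTR+) and Lat-/- (hDTR-) cells, lacking the adaptor LAT of the T cell receptor, came from Lat fl-dtr maT-Cre mice through a flow cytometry sort, so that both groups came from animals carrying the floxed allele and the T cell Cre, and the sort on the human diphtheria toxin receptor defined the genotype. Cells were untreated (0 h) or stimulated for 4 or 20 h with plate-bound anti-CD3 (3 µg/ml) and anti-CD28 (1 µg/ml), with 3 libraries per genotype and time. Library totals were 2.06e+07 to 4.52e+07 counts in the enriched experiment and 1.78e+07 to 2.85e+07 counts in the sorted one. Values below are CPM, read counts scaled to a common library size, and are listed as libraries 1, 2 and 3, means carry the SD over n = 3 libraries, and changes are log2 fold changes from edgeR's quasi-likelihood test with p adjusted over all genes tested by the Benjamini-Hochberg method. Calls required both a fold change over 2 and an adjusted p under 0.05. Whether the 3 libraries came from separate animals is not given in the labels, and p-values measure the spread between these libraries. In bulk RNA, fewer cells of a type and less RNA per cell cannot be told apart.

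In the order of the genome build GRCm38, the genes lie at chr6:29526625-29541871 (Irf5), chr7:44997648-45002848 (Irf3), chr7:141262706-141266481 (Irf7, the only one on the minus strand), chr8:46739732-46847458 (Irf2), chr8:120736358-120756694 (Irf8), chr11:53770014-53778374 (Irf1), chr13:30749226-30766976 (Irf4) and chr14:55603571-55610030 (Irf9).

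The targeted genes were read first. Lat was at 5.69 to 19.1 CPM in the Lat-/- libraries against 92.2 to 351 CPM in the sorted WT libraries. In the Cd5-/-Cd6-/- libraries Cd5 was at 0.149 to 0.663 CPM and Cd6 at 0.345 to 0.652 CPM. At 0 h the library 2 labelled Cd5-/- had 719 CPM of Cd5 and 329 CPM of Cd6, where the other two had 129 and 105 CPM of Cd5. The library 2 labelled Cd6-/- had 172 CPM of Cd5 and 1203 CPM of Cd6, where the other 2 had 349 and 251 CPM of Cd6. Both libraries thus stood against their labels. The Cd6 level of the one labelled Cd5-/- was near those of the other Cd6-/- libraries. The Cd5 level of the one labelled Cd6-/- was near those of the other Cd5-/- libraries. An exchange of the 2 was not tested. The labels were kept, and the responses and differences of the Cd5-/- and Cd6-/- cells that rest on these libraries are also given without them. Summed B cell markers (10 genes) reached 85.5 to 708 CPM at 0 h in the enriched cells but 1.68 to 5.01 CPM in the sorted cells, and the summed CD4 T cell markers (8 genes) were at 3204 to 9265 CPM in all libraries.

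The 300 bases around the start of each gene, 250 before it and 50 after it, are shown for Irf1, Irf2 and Irf8, whose windows held an interferon motif, and for Irf4 and Irf7, whose levels spanned the widest range, since the interferon pathway is known to act on IRF genes through such sites. They are RefSeq sequences of GRCm38.p6, written 5′ to 3′ on the strand of the gene, with motif matches in capitals. The window of Irf1 is chr11:53769764-53770063 (plus strand), that of Irf2 chr8:46739495-46739794 (plus), that of Irf4 chr13:30748983-30749282 (plus), that of Irf7 chr7:141266375-141266674 (minus) and that of Irf8 chr8:120736108-120736407 (plus).
Irf1: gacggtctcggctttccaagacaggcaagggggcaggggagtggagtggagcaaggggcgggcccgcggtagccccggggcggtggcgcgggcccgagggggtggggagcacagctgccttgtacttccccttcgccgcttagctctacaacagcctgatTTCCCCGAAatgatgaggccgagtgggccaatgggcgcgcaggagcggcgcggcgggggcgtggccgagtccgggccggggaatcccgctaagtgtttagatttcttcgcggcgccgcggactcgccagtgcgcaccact
Irf2: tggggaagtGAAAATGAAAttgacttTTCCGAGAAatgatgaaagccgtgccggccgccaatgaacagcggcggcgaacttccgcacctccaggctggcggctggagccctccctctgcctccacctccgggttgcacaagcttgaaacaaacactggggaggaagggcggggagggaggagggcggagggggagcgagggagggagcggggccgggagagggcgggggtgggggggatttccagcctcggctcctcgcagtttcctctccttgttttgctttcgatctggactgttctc
Irf4: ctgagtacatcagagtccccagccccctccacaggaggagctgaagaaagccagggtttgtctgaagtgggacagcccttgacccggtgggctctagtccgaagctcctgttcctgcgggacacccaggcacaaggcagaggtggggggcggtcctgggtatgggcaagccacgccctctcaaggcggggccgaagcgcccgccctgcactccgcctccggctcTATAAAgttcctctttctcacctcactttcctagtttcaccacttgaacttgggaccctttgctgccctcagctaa
Irf7: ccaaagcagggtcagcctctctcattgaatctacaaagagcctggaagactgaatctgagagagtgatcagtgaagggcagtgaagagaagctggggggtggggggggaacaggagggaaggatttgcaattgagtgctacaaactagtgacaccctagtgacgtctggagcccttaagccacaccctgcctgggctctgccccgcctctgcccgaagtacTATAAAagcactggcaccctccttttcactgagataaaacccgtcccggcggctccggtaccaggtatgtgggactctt
Irf8: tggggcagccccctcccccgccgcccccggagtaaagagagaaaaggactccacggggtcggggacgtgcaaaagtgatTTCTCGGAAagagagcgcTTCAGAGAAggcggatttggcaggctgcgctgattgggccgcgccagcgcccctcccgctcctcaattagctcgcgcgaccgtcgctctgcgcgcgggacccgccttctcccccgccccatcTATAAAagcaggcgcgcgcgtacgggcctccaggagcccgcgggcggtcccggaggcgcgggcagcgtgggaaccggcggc
The gamma interferon activated site, searched as TTCNNNGAA on both strands, had 1 match in the Irf1 window, 1 in the Irf2 window and 2 in the Irf8 window, and 8.30% of 32851 promoter windows held at least 1. The interferon-stimulated response element, searched on both strands as a pair of GAAA runs with any 2 bases between them, matched once, in the Irf2 window, against 3.44% of all windows. A TATAAA on the printed strand lay 26, 29 and 31 bases before the start of Irf4, Irf7 and Irf8, and 8.32% of all windows held one. These letters were searched after the sequences had been read, so that this share is no background for the matches. All 8 members matched the RefSeq table, with 11 windows in all. No match overlapped another, and a match describes letters only.

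In unstimulated WT cells Irf1 was the highest member per exonic length in both experiments, and after stimulation Irf4 was. Levels per length are CPM divided by the exonic length in kilobases (RPKM). In enriched WT cells at 0 h Irf1 was at 77.9 RPKM, Irf7, Irf3 and Irf9 lay at 30.2, 29.4 and 29.2 RPKM with ranges that overlapped, and Irf2 followed at 18.7. Irf4, Irf5 and Irf8 were lowest, at 4.91, 4.75 and 4.71 RPKM, again with overlapping ranges. At 4 h Irf4 reached 480.3 RPKM, apart from Irf1 (69.0), Irf8 (54.2) and Irf3 (44.5), of which each neighbour overlapped the next. At 20 h the order was Irf4 (289.8), Irf8 (76.3), Irf1 (48.7) and Irf3 (30.4), and Irf7 was now the lowest (0.485 RPKM). Sorted WT cells had the same first and last members at 20 h, Irf4 at 208 and Irf7 at 0.420 RPKM.

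**Figure D1:**
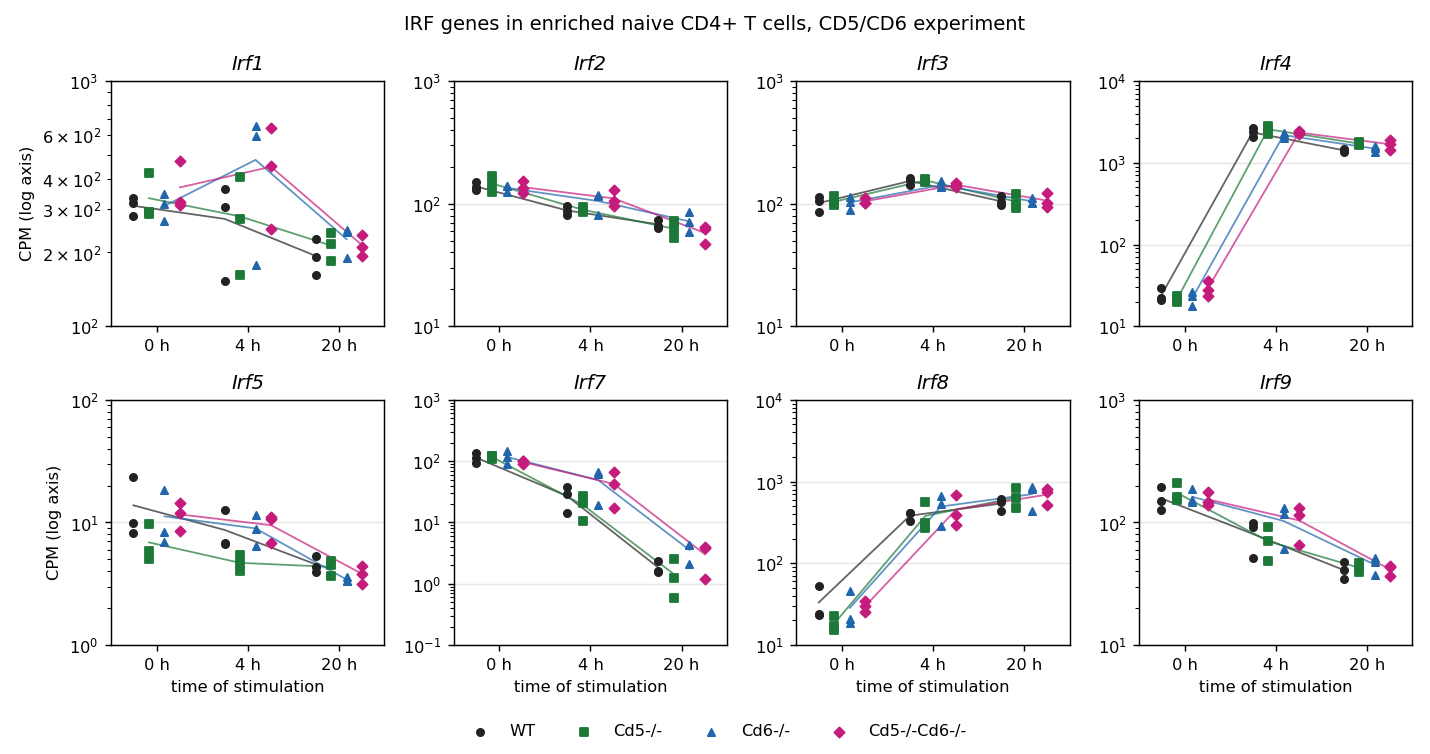
CPM (log axis) of the 8 IRF genes in each library of the enriched experiment, by time of stimulation and genotype, where each point is 1 library and lines join the means of 3 libraries. Irf4 and Irf8 lie higher and Irf7 lower after stimulation in all 4 genotypes, with Irf4 between 1999 and 2842 CPM at 4 h in all 12 libraries.

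Of the 8 members, 2 rose and 1 fell at 4 h in enriched WT cells, where 8.24% of all genes rose and 11.1% fell, and 2 rose and 4 fell at 20 h against 12.3% and 17.3% of all genes. In sorted WT cells 2 rose and 3 fell at 4 h (8.05% and 9.29% of all genes) and 2 rose and 3 fell at 20 h (10.8% and 12.7%). From 4 to 20 h none rose in either experiment (8.74% of all genes in enriched and 7.90% in sorted WT cells), and 1 of 8 fell in enriched cells (12.2%) and 2 of 8 in sorted cells (9.32%). Irf7 fell in both and Irf1 in sorted cells, by 1.10 on the log2 scale, a call lost with library totals (-0.90) and without the libraries numbered 1 (-0.93) or 3 (-0.97). The median change of the members at 20 h was -0.85 in enriched and -0.52 in sorted WT cells. The median over all genes tested was 0 in every comparison. It includes many genes with few reads and is no measure for expressed genes. The shares of all genes given here and below rest on the same genes tested and carry the same limit. The 2 experiments were fitted apart, and their values are set side by side without a test.

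Irf4 had the largest rise of the family. In enriched WT cells it was at 22.3, 20.7 and 29.2 CPM at 0 h, 2638, 2354 and 2072 CPM at 4 h and 1362, 1415 and 1485 CPM at 20 h. In sorted WT cells it was at 22.0, 12.9 and 23.7 CPM at 0 h, 1821, 2119.6 and 1234 CPM at 4 h and 1018, 1028 and 1006 CPM at 20 h. Within each experiment every stimulated WT library lay above every unstimulated one, and the 4 h libraries above the 20 h libraries. The rise at 4 h was 6.61 (SE 0.20, adjusted p = 2.93e-42) in enriched cells, which is 97.8-fold, and 6.46 (SE 0.19, adjusted p = 3.03e-258) in sorted cells. At 20 h it was 5.88 (SE 0.19, adjusted p = 4.98e-40) and 5.70 (SE 0.18, adjusted p = 6.59e-215). From 4 to 20 h the differences of -0.73 and -0.76 passed the adjusted p but not the fold of 2.

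Irf8 was the other member that rose. In enriched WT cells it went from 23.1, 24.2 and 52.4 CPM to 325, 413 and 410.4 CPM at 4 h and 439, 556 and 619 CPM at 20 h. Sorted WT cells had 9.92, 8.39 and 10.2 CPM at 0 h, 202, 171 and 164 at 4 h and 252, 261 and 247 at 20 h. Within each experiment every 20 h library lay above every 4 h library, though the changes from 4 to 20 h of 0.49 in enriched and 0.50 in sorted cells were under the fold of 2. The rise at 4 h was 3.52 (SE 0.29, adjusted p = 1.17e-17) in enriched and 4.23 (SE 0.18, adjusted p = 1.42e-125) in sorted cells, and at 20 h 4.02 (SE 0.30, adjusted p = 3.48e-20) and 4.74 (SE 0.18, adjusted p = 8.65e-151). Library 3 of the enriched WT cells at 0 h, the highest in Irf8 and in Irf5, also had the highest sums of B cell markers (202, 134 and 708 CPM in libraries 1, 2 and 3) and of myeloid markers (127, 129 and 290 CPM). In the sorted WT cells summed B cell markers stayed at or under 5.01 CPM, and the part of these cells in the enriched values was not tested.

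**Figure D2:**
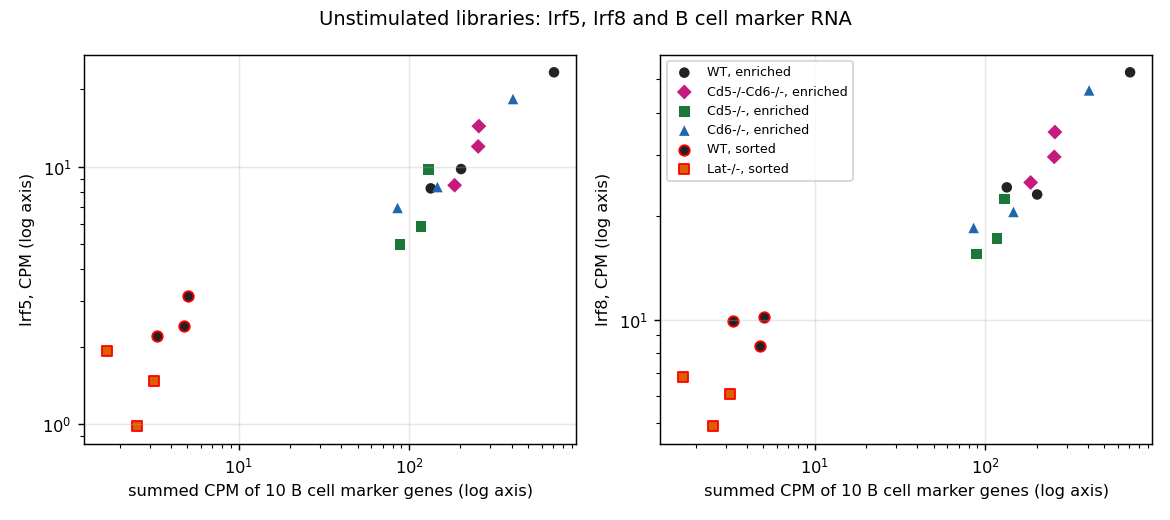
CPM of Irf5 and Irf8 against the summed CPM of the B cell markers in the unstimulated libraries of both experiments (log axes), 1 point per library. The enriched libraries spread from 85.5 to 708 CPM of B cell markers and the sorted ones lie at or under 5.01 CPM, and library 3 of the WT cells is the highest of the enriched libraries in all 3 measures.

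Irf7 fell the most. It was at 94.8, 111 and 137 CPM in enriched WT cells at 0 h, 14.4, 28.7 and 37.8 CPM at 4 h and 1.55, 1.62 and 2.32 CPM at 20 h. In sorted WT cells it was at 113, 124 and 94.1 CPM at 0 h, 11.8, 10.2 and 21.7 CPM at 4 h and 1.71, 1.36 and 1.68 CPM at 20 h. The 3 times did not overlap in either experiment. Irf7 is known for its high level in plasmacytoid dendritic cells, whose 6 markers summed to 104 to 154 CPM at 0 h, 55.6 to 76.2 CPM at 4 h and up to 153 CPM (median 128) at 20 h in enriched WT cells. In sorted WT cells the sums were 95.6 to 167, 44.8 to 53.0 and 79.9 to 89.4 CPM. These sums hold mostly Bst2, with 106667 counts over the enriched libraries against 9173 for Ccr9, the next marker. In the sorted libraries the counts were 35231 and 2633. The sums therefore do not show the course of the other markers. Of the 6 markers, 2 were called lower at 4 h and 5 at 20 h in enriched WT cells (11.1% and 17.3% of all genes). In sorted WT cells 1 was called lower at each time (9.29% and 12.7% of all genes), where 4 of the 6 had any read. Siglech, a defining marker, had 1 count over the 18 sorted libraries, and the part of these cells in the fall of Irf7 was not tested. The change at 4 h was -2.08 (SE 0.32, adjusted p = 8.45e-08) in enriched and -2.91 (SE 0.17, adjusted p = 1.56e-64) in sorted cells, and at 20 h -5.97 (SE 0.40, adjusted p = 1.61e-22) and -6.12 (SE 0.21, adjusted p = 3.93e-188), the first of these a level 62.6-fold lower. Irf9 fell with it at 20 h, from 157 ± 34.9 to 40.9 ± 6.73 CPM in enriched cells, a change of -1.94 (SE 0.22, adjusted p = 2.74e-12), and from 165 ± 2.82 to 29.4 ± 1.44 CPM in sorted cells, a change of -2.49 (SE 0.16, adjusted p = 1.4e-53). At 4 h Irf9 was called in sorted cells, at -1.54 (SE 0.15, adjusted p = 2.13e-22), and was at -0.96 (SE 0.21, adjusted p = 0.000139) in enriched cells, just short of the fold of 2, and was called there with library totals, at -1.19, and without the libraries numbered 2, at -1.13.

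Irf1 fell in sorted WT cells and was not called in enriched ones at 4 or 20 h. In enriched WT cells it was at 332, 317 and 280.4 CPM at 0 h, 153, 306 and 364 CPM at 4 h and 162, 192 and 228 CPM at 20 h. The 4 h libraries spanned both other times, and the differences of -0.18 (SE 0.25, adjusted p = 0.728) at 4 h and -0.68 (SE 0.26, adjusted p = 0.027) at 20 h were not called. In sorted WT cells Irf1 was at 319, 318 and 359 CPM at 0 h, 157, 109 and 165 CPM at 4 h and 63.8, 69.4 and 68.0 CPM at 20 h, with no overlap, and fell by 1.21 (SE 0.15, adjusted p = 9.69e-15) at 4 h and by 2.31 (SE 0.15, adjusted p = 1.86e-48) at 20 h on the log2 scale. Irf2, whose protein binds the sites of IRF1, fell in enriched cells at 20 h, from 138 ± 10.7 to 67.8 ± 5.67 CPM, a change of -1.03 (SE 0.16, adjusted p = 1.48e-07), which was -0.94 and not called without the libraries numbered 3. In sorted cells it went from 129.7 ± 5.11 to 81.6 ± 4.23 CPM, a difference of -0.67 (SE 0.15, adjusted p = 4.2e-05) that did not reach the fold of 2.

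Irf3, which encodes a factor held ready in the cytoplasm and regulated by phosphorylation, varied least. Its condition means, centred within each experiment, spanned 0.83 on the log2 scale over the 18 conditions, against 8.52 for Irf4. It was at 101 ± 14.8, 153 ± 10.1 and 105 ± 9.25 CPM at 0, 4 and 20 h in enriched WT cells and was called in no comparison. Irf5 was the lowest member by counts, with a mean of 246 counts per enriched and 58.0 per sorted library. In enriched WT cells it was at 9.81, 8.25 and 23.3 CPM at 0 h and 4.37, 5.34 and 3.96 CPM at 20 h, and fell by 1.60 (SE 0.29, adjusted p = 3.36e-06) on the log2 scale, with a change of -0.90 and no call without the libraries numbered 3. In sorted WT cells it was at 2.20, 2.40 and 3.15 CPM at 0 h and 4.24, 4.50 and 4.90 CPM at 20 h, a difference of 0.81 (SE 0.34, adjusted p = 0.048) in the other direction, not called. The B cell and myeloid sums in enriched WT cells fell over the same times as Irf5, from 134 to 708 CPM and 127 to 290 CPM at 0 h to at most 6.67 and 5.55 CPM at 20 h in any enriched library, and their part in its fall was not tested. Irf5 also shares 411 exonic bases (14.1%) with Tnpo3 on the opposite strand, a gene with a mean of 5402 counts per enriched library, and whether the counting used strand is not given in the sources used here.

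The comparison of the Cd5-/-, Cd6-/- and Cd5-/-Cd6-/- cells with WT cells asked whether either surface protein changes the response. With the labels kept, none of the 72 member tests against WT at 0, 4 and 20 h was called, where 0.0320% of all genes' tests were. Of these, 9 had an unadjusted p under 0.05, and DESeq2 called none either. The differences ran from -1.01 to 0.96, and the lowest adjusted p was 0.253, for Irf5 in Cd5-/- cells at 0 h. The 3 genotypes share the WT libraries. Without the libraries that stood against their labels, Irf5 and Irf8 in Cd5-/- cells at 0 h were called.

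Irf5 at 0 h was at 5.00, 9.76 and 5.88 CPM in Cd5-/- cells, a difference from WT of -1.01 (SE 0.29, adjusted p = 0.253). Irf8 at 0 h was at 15.5, 22.4 and 17.2 CPM in the same cells, below all 3 WT libraries, a difference of -0.86 (SE 0.27, adjusted p = 0.470). The B cell markers summed to 88.6, 130 and 117 CPM in these Cd5-/- libraries against 202, 134 and 708 CPM in WT. Of these 10 markers, 3 were called lower, where 0.0557% of all genes were, and their part was not tested. Without the libraries numbered 3 the differences were -0.30 for Irf5 and -0.32 for Irf8. Without the library 2 labelled Cd5-/- and the library 2 labelled Cd6-/-, the differences were -1.35 for Irf5 and -1.03 for Irf8, and both were called. Irf1 at 4 h was at 179, 656 and 596 CPM in Cd6-/- cells against 153, 306 and 364 in WT, a difference of 0.80 (SE 0.26, adjusted p = 0.885) with overlapping libraries. Irf7 at 20 h in Cd6-/- cells differed by 0.96 (SE 0.37, adjusted p = 1.00), and was called without the libraries numbered 1, at 1.13, or 3, at 1.02. Library 1 was the lowest in all 4 genotypes at 4 h for Irf1, Irf5, Irf7, Irf8 and Irf9. Irf4 at 20 h was at 1779.5, 1723 and 1646 CPM in Cd5-/- cells, above the 3 WT libraries, a difference of 0.27 (SE 0.15, adjusted p = 1.00).

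Irf4 and Irf8 rose and Irf7 fell at 4 and at 20 h in each of the 3 knockouts. Over their 9 responses, 12 member tests were called higher and 23 lower of 72, where 23.0% of all genes' tests were called in either direction. The responses of a genotype share libraries and the same members recur, so that the 72 tests are not independent. Without the libraries 2 that stood against their labels the counts were again 12 and 23, and no response of the Cd5-/- or Cd6-/- cells against 0 h gained or lost a call. The rise of Irf4 at 4 h was 6.92 (SE 0.20) in Cd5-/-, 6.61 (SE 0.20) in Cd6-/- and 6.33 (SE 0.20) in Cd5-/-Cd6-/- cells. The fall of Irf7 at 20 h was -6.28 (SE 0.40), -5.04 (SE 0.37) and -5.01 (SE 0.37) in the same order. The 4 h falls of Irf7 were -2.61 (SE 0.33), -1.26 (SE 0.31) and -1.19 (SE 0.31), and without the libraries numbered 1 the latter pair, at -0.70 and -0.88, was not called. Without the libraries 2 that stood against their labels the 4 h changes in Cd5-/- and Cd6-/- cells were 6.99 and 6.46 for Irf4 and -2.58 and -1.41 for Irf7, and the 20 h changes of Irf7 were -6.31 and -5.23. None of the 48 tests of a difference of response from WT was called (0.00155% of all genes' tests), by edgeR or by DESeq2, and 6 had an unadjusted p under 0.05. The largest was Irf8 in Cd5-/- cells at 20 h, at 1.11 (SE 0.37), whose adjusted p, like the lowest of the 48, was near 1.00. It was 1.28 and called without the libraries 2 that stood against their labels at 0 h, and 0.71 and not called without the libraries numbered 3. The difference of the 4 h response of Irf7 in Cd5-/-Cd6-/- cells was called without the libraries numbered 3, at 1.10. Among the responses themselves, Irf1 in Cd6-/- cells at 4 h was called higher than at 0 h without the libraries numbered 1, at 1.10.

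The sorted cells asked what the family does without LAT, the adaptor on which T cell receptor signals converge. At 0 h 1 of 8 members was called lower in Lat-/- cells and none higher, where 0.814% of all genes were lower and 0.148% higher. Irf4 was at 5.03, 3.45 and 5.29 CPM in Lat-/- cells against 22.0, 12.9 and 23.7 CPM in WT cells, with no overlap, a difference of -2.09 (SE 0.17, adjusted p = 1.61e-32). The regulatory T cell markers (4 genes) summed to 56.0, 39.0 and 65.6 CPM in these Lat-/- libraries against 130, 103 and 169 CPM in WT, and 3 of the 4 were called lower, among them Foxp3, which encodes the defining factor of these cells (-1.39, SE 0.18). NK cell (4 of 4), gamma delta T cell (3 of 4) and myeloid (3 of 10) markers were called lower as well, at summed levels of at most 6.70, 44.7 and 8.60 CPM in any sorted library at 0 h, and the part of these cells in the Irf4 difference was not tested. Irf8, at 6.81, 4.89 and 6.06 against 9.92, 8.39 and 10.2 CPM, differed by -0.68 (SE 0.17, adjusted p = 0.0060), under the fold of 2.

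**Figure D3:**
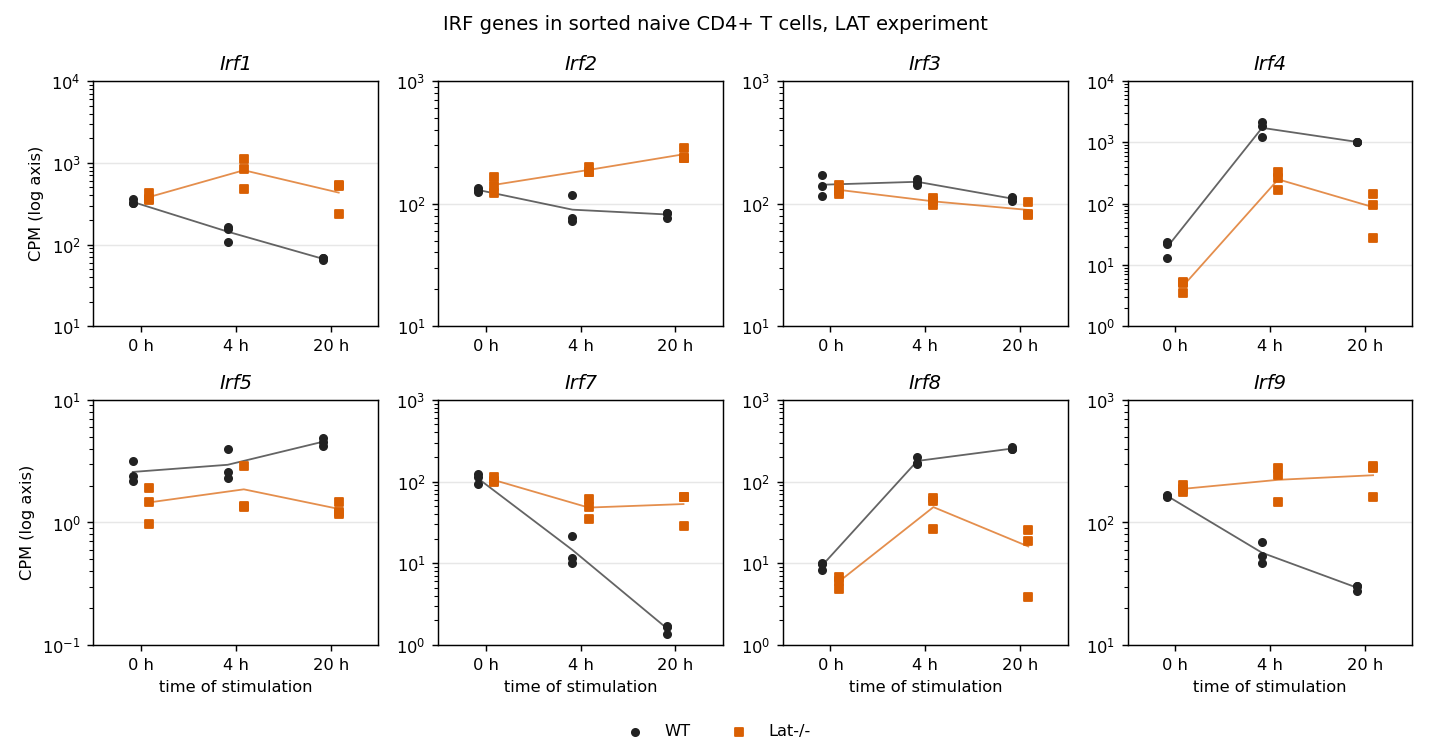
CPM (log axis) of the 8 IRF genes in each sorted library of WT and Lat-/- cells at 0, 4 and 20 h, where each point is 1 library and lines join the means of 3 libraries. Irf4 and Irf8 of Lat-/- cells lie below WT and Irf1, Irf2, Irf7 and Irf9 above WT at 4 and 20 h.

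After stimulation the family split. At 4 h Irf1, Irf2, Irf7 and Irf9 were higher and Irf4 and Irf8 lower in Lat-/- cells, 4 and 2 of 8 against 5.51% and 6.23% of all genes. At 20 h the same 4 were higher and Irf4, Irf5 and Irf8 lower, 4 and 3 of 8 against 12.1% and 12.3% of all genes. The median difference of the members was 0.27 at 4 h and 0.66 at 20 h.

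Irf4 at 4 h was at 258, 165 and 324 CPM in Lat-/- cells and at 20 h at 93.8, 27.2 and 142 CPM, below every WT library of the same time. The differences from WT were -2.79 (SE 0.16, adjusted p = 2.98e-68) and -3.53 (SE 0.16, adjusted p = 5.09e-103), or 6.92-fold and 11.6-fold lower. Irf8 was at 62.5, 25.9 and 57.7 CPM at 4 h and 19.0, 3.86 and 25.4 CPM at 20 h in Lat-/- cells. It differed from WT by -1.87 (SE 0.16, adjusted p = 8.9e-31) and -3.98 (SE 0.17, adjusted p = 2.04e-115). The summed regulatory T cell markers moved the same way, at 104 to 117 CPM in Lat-/- against 591 to 908 CPM in WT cells at 4 h. At 20 h they were at 13.0 to 58.4 against 773 to 810 CPM. Over all sorted libraries Il2ra had 117750 counts, against 11247 for Foxp3, 5087 for Ikzf2 and 2286 for Ctla4. The summed counts were thus mostly Il2ra, and the part of regulatory T cells was not tested. Irf5 was at 1.47, 1.22 and 1.18 CPM at 20 h against 4.24, 4.50 and 4.90 CPM in WT, a difference of -1.82 (SE 0.36, adjusted p = 2.21e-06).

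Irf7 at 20 h was at 65.2, 28.9 and 65.3 CPM in Lat-/- cells against 1.71, 1.36 and 1.68 CPM in WT cells. The lowest Lat-/- library lay above the highest WT library, and the difference of 5.07 (SE 0.20, adjusted p = 1.09e-136) was the largest of the family, 33.5-fold. At 4 h Irf7 was at 48.5, 35.3 and 60.5 against 11.8, 10.2 and 21.7 CPM, a difference of 1.72 (SE 0.16, adjusted p = 4.8e-24). Irf9 was at 277, 148 and 243 CPM at 4 h and 289, 161 and 278 CPM at 20 h in Lat-/- cells, above each WT library, with differences of 1.98 (SE 0.15, adjusted p = 3.56e-35) and 3.05 (SE 0.16, adjusted p = 8.81e-77).

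Irf1 at 4 h was at 1100.4, 483 and 849 CPM in Lat-/- cells against 157, 109 and 165 CPM in WT. At 20 h it was at 540.3, 239 and 516 against 63.8, 69.4 and 68.0 CPM. The Lat-/- libraries were higher at both times without overlap, by 2.50 (SE 0.16, adjusted p = 2.14e-55) and 2.69 (SE 0.16, adjusted p = 1.33e-63), and library 2 was the lowest of the Lat-/- libraries each time. Irf2 was at 182, 182 and 201 CPM at 4 h and 286, 235 and 237 CPM at 20 h, 1.08 (SE 0.15, adjusted p = 2e-11) and 1.63 (SE 0.15, adjusted p = 2.64e-25) from WT. The 4 h call of Irf2 was lost without library 1, at a difference of 1.00. Irf3 differed by -0.53 (SE 0.15, adjusted p = 0.0025) at 4 h and -0.31 (SE 0.15, adjusted p = 0.105) at 20 h and was not called.

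**Figure D4:**
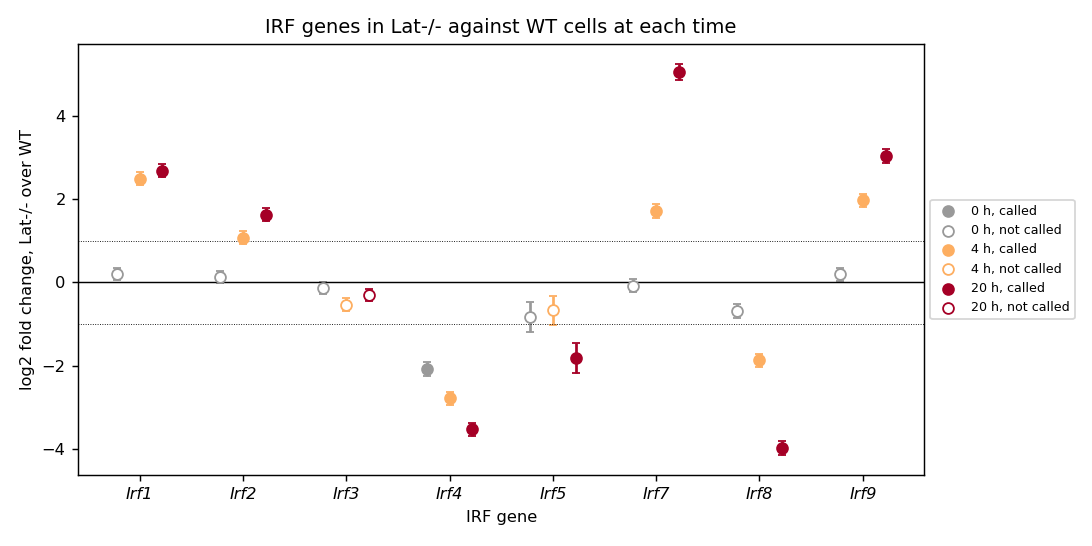
Log2 fold change of each IRF gene between Lat-/- and WT sorted cells at 0, 4 and 20 h, with bars for the SE, filled points for called differences and dotted lines at the fold of 2. Values run from -3.98 for Irf8 to 5.07 for Irf7 at 20 h.

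Within Lat-/- cells the response was smaller in part and turned in part. At 4 h 3 members rose and 1 fell, where 3.08% and 3.62% of all genes did. Irf4 rose by 5.76 (SE 0.19, adjusted p = 1.73e-206) and Irf8 by 3.04 (SE 0.17, adjusted p = 7.51e-67), and Irf1, which fell in sorted WT cells, rose by 1.09 (SE 0.15, adjusted p = 1.1e-11). Irf7 fell by 1.12 (SE 0.16, adjusted p = 5.47e-11) on the log2 scale. The Irf1 call was lost without library 1, at 0.75, and the Irf7 call without the Lat-/- libraries numbered 2, at -0.98. At 20 h 2 of 8 were called higher than at 0 h and none lower (2.14% and 2.07% of all genes), Irf4 by 4.25 (SE 0.18, adjusted p = 2.03e-125) and Irf8 by 1.44 (SE 0.17, adjusted p = 2.84e-15), the latter lost without library 3, at 0.96. Irf7, at 114, 98.7 and 101 CPM at 0 h and 65.2, 28.9 and 65.3 CPM at 20 h, did not overlap between the times, and its difference of -0.98 (SE 0.16, adjusted p = 2.52e-08) was just short of the fold of 2. It was called lower with library totals or the replicate block, at -1.04 in each, and without the libraries numbered 1, at -1.08, or 3, at -1.16. Irf2, at 0.83, was called without the Lat-/- libraries numbered 2, at 1.01. From 4 to 20 h none rose and 2 of 8 fell (2.00% and 2.10%), Irf4 by 1.51 (SE 0.15, adjusted p = 3.46e-21) and Irf8 by 1.61 (SE 0.16, adjusted p = 2.05e-21) on the log2 scale, and Irf1, at -0.91, was called without library 3 of the Lat-/- cells at 20 h, at -1.06.

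The difference of response was tested itself. At 4 h the response of Lat-/- cells exceeded that of WT cells for 3 of 8 members and lay below it for 1 (4.37% and 4.34% of all genes), and at 20 h for 4 and 2 of 8 (10.1% and 9.35%). At 4 h it was 2.30 (SE 0.21, adjusted p = 5.82e-25) for Irf1, 1.79 (SE 0.22, adjusted p = 1.28e-13) for Irf7 and 1.78 (SE 0.21, adjusted p = 6.57e-15) for Irf9. The 4 h difference of Irf8, -1.19 (SE 0.23, adjusted p = 4.52e-06), was lost with DESeq2, at an adjusted p of 0.189, with the filterByExpr filter, at 0.131, and without library 2, at -0.93. Irf2, at 0.94 (SE 0.21, adjusted p = 0.000134), and Irf4, at -0.70 (SE 0.22, adjusted p = 0.013), were not called at 4 h. Irf2 was called with library totals, at 1.10, without the libraries numbered 2, at 1.02, or 3, at 1.03, and without the Lat-/- libraries numbered 2, at 1.12, and Irf4 without the libraries numbered 3, at -1.16. At 20 h Irf7, at 5.14 (SE 0.25, adjusted p = 1.79e-89), and Irf8, at -3.30 (SE 0.23, adjusted p = 7.4e-43), were farthest apart. Irf9, Irf1 and Irf2 followed at 2.85 (SE 0.22), 2.49 (SE 0.21) and 1.50 (SE 0.21), and Irf4 at -1.44 (SE 0.22, adjusted p = 1.04e-09), which was lost with DESeq2, at an adjusted p of 0.0592, and without library 2, at -0.90.

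The makeup of the family changed with these levels. Irf4 made up 1.92 ± 0.610%, 71.8 ± 7.75% and 66.8 ± 0.465% of the summed RPKM of the 8 members in sorted WT cells at 0, 4 and 20 h. In Lat-/- cells its share was 0.430 ± 0.0903%, 13.7 ± 2.37% and 6.64 ± 3.22%. Irf1 held the first place there at all 3 times, with 43.9 ± 4.02%, 53.7 ± 6.48% and 42.8 ± 4.69%, and in WT cells it went from 40.1 ± 3.50% to 7.75 ± 2.75% and 5.43 ± 0.194%. Irf9 and Irf2 were next in Lat-/- cells at 20 h, at 18.2 ± 0.545% and 14.7 ± 4.66%. The summed RPKM was 485 ± 78.9 in WT and 372 ± 106 in Lat-/- cells at 4 h. Shares are parts of 1 sum, so that a rise of Irf4 lowers every other share.

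**Figure D5:**
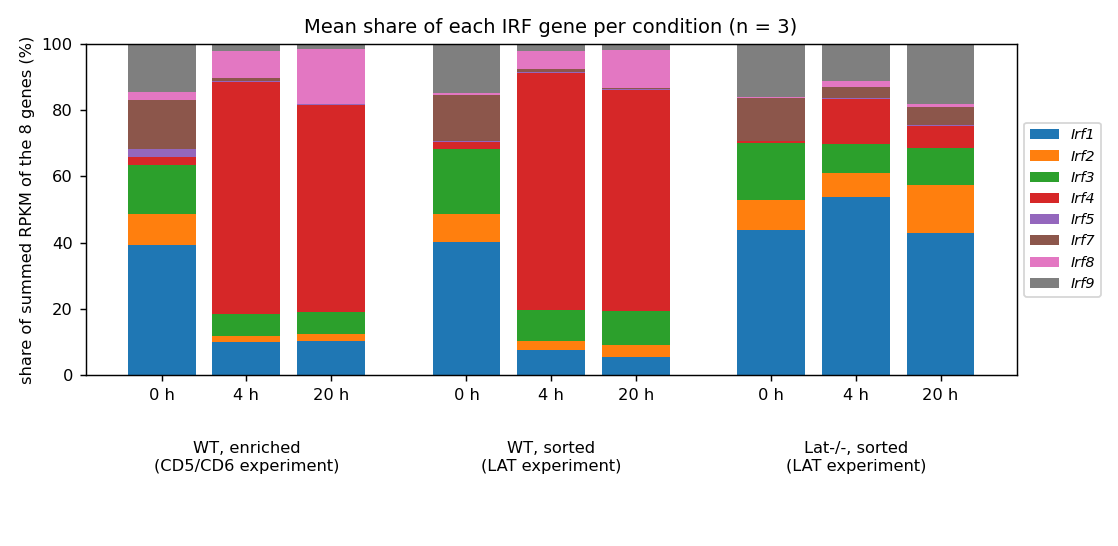
Mean share (percent) of each IRF gene in the summed RPKM of the 8 genes, as stacked bars by time for WT cells of both experiments and for Lat-/- cells, each a mean of 3 libraries. Irf4 takes most of the sum in stimulated WT cells and Irf1 the largest part in Lat-/- cells.

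The lists of pathway genes were read in the same fits. Of 12 targets of ISGF3 and IRF7, 12 fell in WT cells of both experiments at each stimulated time, where 11.1% and 17.3% of all genes fell at 4 and 20 h in enriched and 9.29% and 12.7% in sorted cells, with Rsad2 (-6.96, SE 0.45), Ddx60 (-6.27, SE 0.31), Rtp4 (-6.19, SE 0.44) and Oasl2 (-5.44, SE 0.51) farthest at 20 h in enriched cells. Against sorted WT cells, none of the 12 differed at 0 h in Lat-/- cells, 8 were higher at 4 h and 11 at 20 h (5.51% and 12.1% of all genes), with medians of 2.21 and 4.35. At 20 h Oasl2, of the family of oligoadenylate synthetases, was higher by 7.05 (SE 0.28), Rtp4 by 5.68 (SE 0.23), Rsad2, which encodes viperin, by 5.00 (SE 0.53) and Ifit3 by 4.67 (SE 0.28). Rtp4 went from a mean of 53.4 CPM at 0 h to 0.881 CPM at 20 h in WT cells and from 55.2 to 45.5 CPM in Lat-/- cells.

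Of 9 genes for interferon receptors and their JAK and STAT proteins, 4 were higher in Lat-/- cells at 4 h and 6 at 20 h (5.51% and 12.1% of all genes), and none was lower (6.23% and 12.3%), with a median of 1.51 at 20 h. In WT cells at 20 h against 0 h the same list fell, 6 of 9 in enriched and 7 of 9 in sorted cells (17.3% and 12.7% of all genes). The genes higher in Lat-/- than in WT cells at 20 h included Ifngr1 (3.56, SE 0.16), a chain of the interferon gamma receptor. Stat2 (2.82, SE 0.18), whose protein is a partner of IRF9, and Jak1 (1.95, SE 0.15) were also among them. Of the ligands, Ifnb1 had no count in the sorted table, and Ifng, with means of 7.08 CPM in Lat-/- and 0.865 CPM in WT cells at 4 h, was called higher at both stimulated times, at counts under the mean of 50 asked of the other named genes. Of 10 targets of IRF1, 6 were higher and 2 lower at 4 h (5.51% and 6.23% of all genes), among them Gbp2 (3.19, SE 0.16), Irgm1 (2.88, SE 0.19) and Gbp3 (2.54, SE 0.18), which encode interferon-inducible GTPases, and Cd274 (-1.61, SE 0.15), which encodes PD-L1. At 20 h 6 were higher and none lower (12.1% and 12.3%), with a median of 1.52.

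Of 8 genes tied to IRF4 in effector T cells, 3 were higher and 4 lower in Lat-/- cells at 20 h (12.1% and 12.3% of all genes), with a median of -0.83, so that the list did not move one way. In WT cells at 20 h 4 of the 8 had risen (12.3% of all genes in enriched and 10.8% in sorted cells) and 3 had fallen (17.3% and 12.7%) in both experiments, with Ccr4 at 4.31 (SE 0.30) and Prdm1 at -7.08 (SE 0.50) in enriched cells. In Lat-/- against WT cells at 20 h Prdm1, which encodes BLIMP-1, was higher by 6.02 (SE 0.27). The chemokine receptor genes Ccr4 and Ccr8 were at -4.49 (SE 0.23) and -2.75 (SE 0.18) in the same comparison. Of 11 partners and cofactors tested, 2 were higher and 2 lower in Lat-/- cells at 20 h, a share near that of all genes (12.1% and 12.3%). Swap70, whose protein binds IRF4, was at -2.48 (SE 0.20), Batf at -1.24 (SE 0.17), Ikzf3 at 1.60 (SE 0.16) and Irf2bpl at 1.50 (SE 0.15). Of 17 sensors, adaptors and kinases upstream of IRF3, IRF5 and IRF7, 2 were higher at 4 h and 4 at 20 h (5.51% and 12.1% of all genes), with Ddx58, the gene of the RNA sensor RIG-I, at 3.83 (SE 0.17) at 20 h, and none was lower, with a median of 0.17 at 20 h. None of the 7 lists held a called gene in the comparisons of Cd5-/-, Cd6-/- or Cd5-/-Cd6-/- with WT cells, other than Spib in Cd5-/- cells at 0 h, a B cell gene that was lower.

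The courses of the members were compared over the means of the 18 conditions, centred within each experiment, by the root mean square difference in log2 CPM, as a description with no test. Among the members Irf2 and Irf9 were closest (0.476), followed by Irf1 and Irf2 (0.480) and Irf1 and Irf9 (0.491). Irf4 and Irf8, which both rose, differed by 1.13, and Irf4 and Irf7 were farthest apart at 4.94. Of 9438 protein coding genes, Rtp4 (0.235) and Ddx60 (0.330) were nearest to Irf7, and both stand on the list of ISGF3 and IRF7 targets. Chst2 (0.316) and Ncs1 (0.357) were nearest to Irf4, Serpine2 (0.421) and Shmt1 (0.424) to Irf8, and Gramd3 (0.349) and Nuak2 (0.364) to Irf1. Arid4a (0.205) and Gbp9 (0.207) were nearest to Irf9, Gtf2i (0.119) and Slc38a9 (0.120) to Irf2, Vps33b (0.0641) and Smg5 (0.0700) to Irf3, and Id2 (0.344) and Anxa2 (0.354) to Irf5. The 18 points come from the same libraries for every gene.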

How the data were processed

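Per the labels and the study's methods, stranded polyA libraries were read as single reads, basecalled with bcl2fastq 2.17.1.14, trimmed with DimerRemover, aligned to GRCm38 with STAR and counted with featureCounts. The authors deposited raw counts per gene in a table of 36 libraries and a table of 18 libraries, whose columns were matched to the samples by name. The strand setting, the annotation and the handling of multi-mapped reads are not given in the sources used here. Here, each table was fitted alone with edgeR 4.0.16 (R 4.3.3, limma 3.58.1, TMM factors, quasi-likelihood test, 1 coefficient per condition) on genes with at least 1 read, 32290 and 27780 genes, and p-values were adjusted over all of them by the Benjamini-Hochberg method. DESeq2 1.42.0, other scalings and filters, a replicate block and omitted libraries were alternatives. CPM used TMM-scaled totals, and RPKM divided them by the exonic length. A count of 0 allows up to 3 counts, 0.0663 to 0.146 and 0.105 to 0.169 CPM, counting error only. Named genes were the 8 members, the targeted genes, the 2 genes nearest to each member, and up to 4 called genes per list, those with the largest changes among genes averaging 50 or more counts per library; some genes are not reported here. The members and lists were chosen with earlier results of these data known. No pair of libraries held identical counts. On simulated counts of 12540 genes in the sorted design, edgeR recovered 98 of 100 genes changed by 1.5 on the log2 scale between Lat-/- and WT at 20 h and 85 of 100 for the difference of the 20 h response. On 13738 genes in the enriched design it recovered 92 of 100 between Cd5-/-Cd6-/- and WT at 20 h and 83 of 100 for the difference of the 20 h response. The changed genes were drawn from those with more than 50 expected counts in unstimulated WT cells, and the libraries were simulated as independent. Recovery of lower genes, of changes under 1.5 on the log2 scale, and of changes in Cd5-/- or Cd6-/- cells, was not simulated. The member differences from WT in the enriched experiment, -1.01 to 0.96, were all under that size. The enriched simulation held 100 genes changed by 1.5 and 100 changed by 2. In the data, 14 genes were called between Cd5-/-Cd6-/- and WT cells at 20 h. Recovery with so few changes, or with p adjusted over 32290 or 27780 genes, was not tested.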

Additional observations from a re-analysis of the deposited data

Results flagged for a closer look

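In 10 results the response of Lat-/- cells differed from that of WT cells by a test of the difference itself (edgeR's quasi-likelihood test, interaction contrast, adjusted p under 0.05 and a fold over 2), each from 3 libraries per condition. At 4 h the differences of response were 2.30 for Irf1, 1.79 for Irf7, 1.78 for Irf9 and -1.19 for Irf8 on the log2 scale. At 20 h they were 5.14 for Irf7, 2.85 for Irf9, 2.49 for Irf1, 1.50 for Irf2, -1.44 for Irf4 and -3.30 for Irf8. Irf1 moved in opposite directions, at -1.21 in WT and 1.09 in Lat-/- cells at 4 h.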

How the results depend on the processing

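No direction of a called result turned under any alternative. Of 304 member tests, DESeq2 left 301, edgeR with RLE factors 303, the filterByExpr filter 303, unscaled library totals 299 and a fit of the compared groups alone 302 on the same side of the thresholds. The adjusted p alone, without the fold of 2, raised the calls to 6 for enriched WT cells at 4 h, 5 from 4 to 20 h and 55 over the responses of the CD5 and CD6 knockouts. In sorted cells it gave 8 for WT at 20 h, 6 for WT from 4 to 20 h, 5 and 4 for Lat-/- cells at 20 h against 0 h and against 4 h, and 2 between the genotypes at 0 h. Enriched WT cells from 4 to 20 h had 2 calls with DESeq2, with RLE factors, with the compared groups alone and without the libraries 2 labelled Cd5-/- and Cd6-/- at 0 h. Without these libraries, chosen with earlier results known, 2 differences from WT and 1 difference of response were called, and the compared groups alone gave 1 difference of response. Library totals left 1 call for sorted WT cells from 4 to 20 h. Leaving out the libraries of 1 number at a time gave 4 to 6 calls for enriched WT cells at 20 h, 1 to 3 from 4 to 20 h, 33 to 36 over the knockout responses, 1 to 2 against WT and 0 to 1 differences of response, and 1 to 3 for sorted WT cells from 4 to 20 h. Without library 3, Irf5 (-0.90) and Irf2 (-0.94) were not called in enriched WT cells at 20 h. The median of all genes shifted by up to -0.385 (enriched WT at 20 h, compared groups alone).

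A fit with the replicate number as a block changed 1 of 304 member tests, Irf7 in Lat-/- cells at 20 h against 0 h (-1.04, then called, which gave 3 calls in place of 2). Deviations from the condition means had a mean correlation of 0.324 between libraries with the same number in the enriched experiment (172 of 198 pairs over 0.1, 34 of 36 libraries closest to their own number). In the sorted experiment it was 0.0927 (19 of 45 pairs, 16 of 18 libraries). Other numbers had -0.158 and -0.0438. Deviations cancel within each condition, which makes these values negative once same numbers correlate, so they are no separate evidence. Same-numbered libraries of the enriched experiment thus deviated together for the most part, but the labels name no shared animal, batch or day and not every pair passed 0.1, the limit set for a pairing, so the fit without the block was kept.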
